A study of Mus musculus with 16 samples.

Results

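SIRT1 was mapped by chromatin immunoprecipitation and sequencing in macrophages without Ezh2 and in macrophages with it, and the peak lists of both libraries are compared here place by place. The members are all SIRT1 peaks on chromosomes 1 to 19 and X: 18087 peaks of the Ezh2 knockout library and 74346 peaks of the Ezh2 wild-type library, together 92433 of the 367397 peaks in the 9 lists of the study. A peak that overlapped a peak of the other list by at least 1 bp was called kept, and the others were called knockout only or wild type only. The cells were untreated primary macrophages of C57BL/6 mice, grown from bone marrow for 5 days with M-CSF, of Ezh2 knockout genotype in the first group and wild type in the second. Both were precipitated with the same antibody against Sirt1 (CST, 8469S), and the labels name an input for each. How Ezh2 was deleted, in which cells, and how many animals were used is not given in the sources used here. In addition, the study mapped SIRT1 in p53 knockout and p53 wild-type macrophages, and H3K27ac, H3K27me3, EZH2 and p53 in other macrophages. Each group held 1 library, so no difference between the genotypes has a replicate check and no test is given. For the same reason the 95% Wilson intervals, taken over peaks or promoters, cover counting error only. They cover neither the spread between libraries nor PCR copies, which are not independent molecules.

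SIRT1 is an NAD-dependent deacetylase that removes acetyl groups from histones and from many transcription regulators, among them p53, FOXO proteins and the p65 subunit of NF-kB. It does not read a DNA sequence itself and reaches chromatin through other proteins. EZH2 is the catalytic subunit of Polycomb repressive complex 2, which methylates lysine 27 of histone H3 and so marks silent developmental genes. H3K27ac lies on the same lysine and marks active promoters and enhancers.

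All 10 macrophage markers examined, among them Csf1r, Spi1, Adgre1 and Cd68, had an H3K27ac peak within 1 kb of a gene end, and none had an H3K27me3 peak there. Of the other lineages, 0 of 6 neutrophil and 0 of 5 erythroid markers had one, against 2 of 6 lymphocyte markers (Cd79a and Ms4a1) and 1 of 5 stroma markers (Pdgfrb). Over all genes the share was 17.8%. The histone marks come from separate libraries of wild-type macrophages, so this checks the culture and not the Ezh2 knockout cells.

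The promoters below carry SIRT1 peaks of each class: for each class the peaks with the highest −log10 p whose summit lay in a RefSeq promoter, taken for kept places by the lower −log10 p of both peaks. The promoter of Selenbp1, whose peak ties with that of Rab5if, is shown as a CG-poor contrast. So is a RefSeq promoter of Cdkn1a, at the outer annotated start of the gene. A gene can have further RefSeq promoters (32619 promoters for 26794 genes), so a printed promoter does not stand for all promoters of its gene. Promoters are shown because the lists differed at CG-rich ones. Each runs from 250 bases before to 50 bases after a RefSeq transcription start, on the gene's strand, in build GRCm38.p6. Capitals mark the GC box of SP and KLF factors (GGGCGG, or CCGCCC on the other strand). Trio encodes a guanine nucleotide exchange factor for small GTPases, at chr15:28025799-28026098, minus strand, and Rab5if a partner of the endosomal GTPase Rab5, at chr2:156862872-156863171, plus strand. Selenbp1 encodes a selenium-binding protein, at chr3:94932833-94933132, plus strand. The peak at each of these promoters was in the knockout list and overlapped no wild-type peak. Trio as a whole gene held 11 knockout and 22 wild-type peaks. The Rab5if peak also overlapped a p53 wild-type SIRT1 peak.
Trio: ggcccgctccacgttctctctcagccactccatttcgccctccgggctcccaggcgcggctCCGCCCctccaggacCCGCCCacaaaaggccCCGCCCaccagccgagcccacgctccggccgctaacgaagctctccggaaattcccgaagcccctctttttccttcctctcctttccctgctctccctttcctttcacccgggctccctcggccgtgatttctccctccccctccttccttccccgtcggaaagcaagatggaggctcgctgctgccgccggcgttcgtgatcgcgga
Rab5if: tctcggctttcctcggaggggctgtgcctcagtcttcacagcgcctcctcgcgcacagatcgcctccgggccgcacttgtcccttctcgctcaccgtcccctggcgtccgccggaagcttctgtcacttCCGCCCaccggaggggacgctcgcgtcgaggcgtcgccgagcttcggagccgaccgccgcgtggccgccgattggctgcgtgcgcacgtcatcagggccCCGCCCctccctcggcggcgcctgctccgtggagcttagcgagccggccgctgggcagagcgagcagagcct
Selenbp1: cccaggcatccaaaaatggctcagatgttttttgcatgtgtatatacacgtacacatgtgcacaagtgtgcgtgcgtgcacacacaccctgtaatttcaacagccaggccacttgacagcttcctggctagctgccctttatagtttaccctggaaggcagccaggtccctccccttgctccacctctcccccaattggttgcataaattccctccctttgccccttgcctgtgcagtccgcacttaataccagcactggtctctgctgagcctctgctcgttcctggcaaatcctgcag
Pold3, a subunit of DNA polymerase delta (chr7:100121453-100121752, minus strand), and Rfxank, a subunit of the RFX complex that drives MHC class II genes (chr8:70139148-70139447, minus strand), had overlapping peaks in both lists.
Pold3: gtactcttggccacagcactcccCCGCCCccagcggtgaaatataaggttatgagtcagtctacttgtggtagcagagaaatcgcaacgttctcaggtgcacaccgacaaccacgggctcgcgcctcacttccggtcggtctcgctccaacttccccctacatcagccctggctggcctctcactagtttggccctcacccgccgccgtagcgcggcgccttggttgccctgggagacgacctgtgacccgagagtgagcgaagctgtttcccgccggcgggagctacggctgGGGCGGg
Rfxank: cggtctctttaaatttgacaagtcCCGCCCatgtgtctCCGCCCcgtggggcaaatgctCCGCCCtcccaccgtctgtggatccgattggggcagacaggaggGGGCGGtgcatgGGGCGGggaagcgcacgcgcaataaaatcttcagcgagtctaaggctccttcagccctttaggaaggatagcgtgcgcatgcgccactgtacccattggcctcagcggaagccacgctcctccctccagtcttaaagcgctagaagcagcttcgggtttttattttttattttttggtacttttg
At the promoter of Rpl15, a protein of the large ribosomal subunit (chr14:18270937-18271236, minus strand), the peak was in the wild-type list and overlapped no knockout peak. The same held for the printed promoters of Galk1, galactokinase (chr11:116012670-116012969, minus strand), and Cdkn1a, the cyclin-dependent kinase inhibitor p21 (chr17:29090729-29091028, plus strand). The Galk1 peak also overlapped a p53 knockout SIRT1 peak.
Rpl15: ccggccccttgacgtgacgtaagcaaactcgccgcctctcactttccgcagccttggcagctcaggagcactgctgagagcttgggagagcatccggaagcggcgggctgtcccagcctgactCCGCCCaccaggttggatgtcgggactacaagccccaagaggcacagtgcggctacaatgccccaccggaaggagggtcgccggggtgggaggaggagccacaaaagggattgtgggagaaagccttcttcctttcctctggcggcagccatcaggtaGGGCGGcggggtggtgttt
Galk1: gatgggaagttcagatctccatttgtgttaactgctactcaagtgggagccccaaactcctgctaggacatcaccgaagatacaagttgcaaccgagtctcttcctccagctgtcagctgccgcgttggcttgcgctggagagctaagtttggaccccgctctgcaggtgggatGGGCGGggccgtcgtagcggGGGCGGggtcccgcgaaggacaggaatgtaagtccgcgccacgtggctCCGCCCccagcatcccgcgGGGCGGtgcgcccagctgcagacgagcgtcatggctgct
Cdkn1a: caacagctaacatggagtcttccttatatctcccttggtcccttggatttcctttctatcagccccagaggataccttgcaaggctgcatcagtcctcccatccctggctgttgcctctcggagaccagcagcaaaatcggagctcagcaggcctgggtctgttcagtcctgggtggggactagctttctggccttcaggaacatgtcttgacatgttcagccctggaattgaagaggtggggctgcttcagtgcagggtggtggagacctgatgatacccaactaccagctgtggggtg

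These peaks were small stacks of sequenced fragments. The Trio peak (28025805 to 28026023) stood on 9 fragments at its summit, 5.39-fold over the local background, and the peaks of Rab5if and Selenbp1 on 8 fragments each, 4.85-fold. The Pold3 peaks held 7 fragments (4.32-fold) in the knockout library and 6 (3.85-fold) in the wild-type library, and the Rfxank peaks 6 (3.78-fold) in the knockout and 7 (4.37-fold) in the wild type. The wild-type Rpl15 peak held 10 fragments (6.06-fold), that of Galk1 8 (4.95-fold) and that of Cdkn1a 7 (4.40-fold). Folds are the authors' value for each peak, with a pseudocount of 1. Fragments were solved from the deposited fold and p-value of each peak. The capitals show 3 GC boxes for Trio, 2 for Rab5if, 2 for Pold3, 5 for Rfxank, 2 for Rpl15 and 4 for Galk1, and 0 for Selenbp1 and Cdkn1a. Those of Selenbp1 and Cdkn1a held 5 and 2 CG pairs, against 18 to 41 in the others.

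The knockout list was much the shorter one, but it held more of the strong peaks. At a q of at most 0.05 it held 507 peaks (2.80% of the list), against 247 (0.332%) in the wild type. The order turned round between 6 and 7 fragments. There were 2465 knockout peaks of at least 7 fragments, against 1416 wild-type peaks, while 3785 knockout and 33240 wild-type peaks stood on 4 fragments. No knockout peak had 3 fragments, against 18209 wild-type peaks. The most common background was 0.854 fragments in the knockout library and 0.817 in the wild type. A stack of 3 fragments gives a −log10 p of 1.95 at the knockout background and 2.01 at the wild-type one, on either side of the p of 0.01 (−log10 p of 2) at which the lists end. The part of this step in the difference of list length was not tested.

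**Figure D1:**
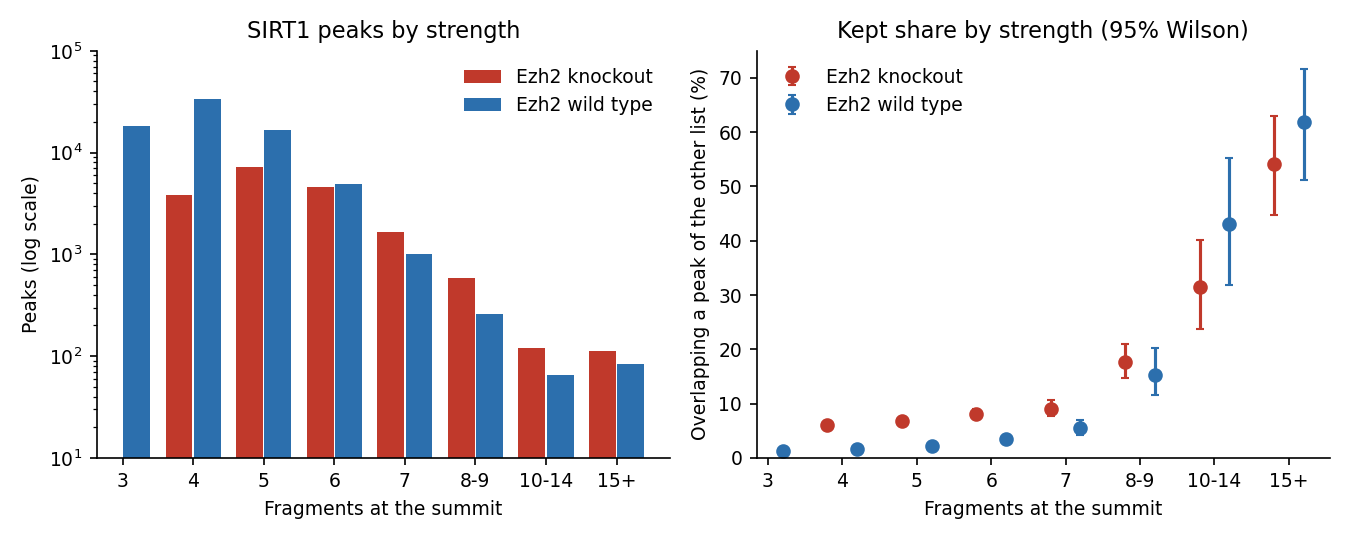
Left, number of SIRT1 peaks (log axis) by fragments at the summit, and right, percent of them overlapping a peak of the other list with 95% Wilson intervals, for the Ezh2 knockout (red) and wild type (blue). Knockout peaks are fewer up to 6 fragments and more numerous from 7 on, and the kept share reaches 54.1% of knockout and 61.9% of wild-type peaks at 15 or more fragments. The highest stacks include places on a high background.

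Most places were found in 1 genotype only. Of the knockout peaks, 1446 (7.99%, interval 7.61 to 8.40) overlapped a wild-type peak, leaving 16641 knockout-only peaks, and 1442 of the wild-type peaks (1.94%, 1.84 to 2.04) overlapped a knockout peak, leaving 72904. The summits of 941 knockout peaks (5.20%) lay inside a wild-type peak, while wild-type peaks covered 0.804% of the chromosomes. Of the 1457 overlapping pairs, 602 (41.3%) had summits within 100 bp of each other, with a median distance of 128 bp. Overlap rose with the number of fragments at the summit. Among knockout peaks it was 6.05% at 4 fragments, 8.15% at 6, 17.6% at 8 to 9, 31.4% at 10 to 14 and 54.1% at 15 or more. Among wild-type peaks it was 1.54% at 4 fragments, 3.43% at 6, 15.3% at 8 to 9, 43.1% at 10 to 14 and 61.9% at 15 or more. Strong peaks are also wider, and some of the highest stacks stood on a high background. These include kept peaks at the start of chromosome 9, of 59 to 792 fragments but 2.64-fold to 6.35-fold in the knockout. The parts of width and of background in the overlap were not tested.

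At the same length, with peaks ranked by −log10 p, the lists of the Ezh2 pair overlapped about as often as those of other pairs of SIRT1 libraries. With 18087 peaks in each list, 3.05% of knockout peaks (2.81 to 3.31) met a wild-type peak. The p53 knockout and p53 wild-type lists met in 2.93% (2.69 to 3.19), and the Ezh2 wild-type and p53 wild-type lists, both from wild-type macrophages, in 2.47% (2.26 to 2.71). The Ezh2 knockout list met the p53 knockout list in 3.39% and the p53 wild-type list in 3.20% of its peaks. Over all 6 pairs the share lay between 2.47% and 3.39%, and over the first 1000 peaks of each list between 5.20% and 6.10%, with 5.80% for the Ezh2 pair. The Ezh2 pair thus lay inside the range of the other 5 pairs, which share libraries with it and with each other.

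Kept peaks met peaks of the p53 libraries more often than peaks of 1 genotype did, although most met none. Of the kept knockout peaks, 32.7% (30.3 to 35.2) overlapped a peak of the p53 knockout or p53 wild-type list, against 11.1% (10.6 to 11.5) of knockout-only peaks and 7.18% (7 to 7.37) of wild-type-only peaks. In all, 149 knockout peaks were found in all 4 SIRT1 lists, and 14800 (81.8%) in no other SIRT1 list. Of the wild-type peaks, 67666 (91.0%) were in no other.

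Kept peaks with the highest −log10 p were high stacks on a high background. The first was at chromosome 2, 98666577 to 98667277, with a −log10 p of 2614 in the knockout and 2560 in the wild type but folds of only 3.17 and 3.28. The 6 kept peaks named for Mir101c, a microRNA gene, lay 3539 to 37265 bp from it at the start of chromosome 9 (3000894 to 3035251). Their stacks held 59 to 792 fragments in the knockout and 50 to 708 in the wild type, on backgrounds so high that folds were 2.64 to 6.35 in the knockout and 3.48 to 8.73 in the wild type. Zc3h7a, an RNA-binding zinc-finger gene, held a kept peak of 2.84-fold in the knockout and 2.80-fold in the wild type. The widest kept place among those named was near Smgc, a submandibular gland protein gene, at chromosome 15, 91906934 to 91910314: 3381 bp wide, 9.89-fold in the knockout and 4.83-fold in the wild type. Of the 10 strongest kept places with a named gene, it alone lay in H3K27me3 and in an EZH2 peak of untreated cells.

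Between Ezh2 and Pdia4 on chromosome 6 (47595271 to 47796140, 201 kb), a stretch that holds Rn4.5s, the gene of the small 4.5S RNA of rodents, both lists had more strong peaks than in any other megabase. This stretch was singled out after its values were seen. It held 36 knockout peaks, 21 of them at a q of at most 0.05, against 28 and 11 in the wild type. The p53 knockout list had 53 peaks and 41 strong ones there, the p53 wild-type list 30 and 17. The length alone would give 1.38 peaks at the mean density of the knockout list and 5.68 at that of the wild type. Of the strong peaks, 11 of 21 in the knockout and 9 of 11 in the wild type overlapped a peak of the other list. The stretch starts where the annotated Ezh2 gene ends, and both p53 libraries show the peaks as well.

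Among the strongest knockout-only peaks, a stack of 23 fragments, 10.6-fold, stood at X, 24619975 to 24620230, 21059 bp from the nearest gene. Inside genes, the strongest was in Tbc1d5, a regulator of endosome traffic, at chromosome 17, 50929332 to 50929586, with 16 fragments and 7.53-fold. Steap4, a metalloreductase induced in inflammation (chromosome 5, 7979443 to 7979842), and Tecpr2, an autophagy factor (chromosome 12, 110932749 to 110933026), each held 11 fragments and 6.47-fold. Mill2, Selenos and Sash1 each held a peak of 10 fragments and 5.93-fold, and Apba2 had one of the same height 6754 bp away. Mill2 is an MHC class I-like gene, and Selenos encodes a selenoprotein of the endoplasmic reticulum. Of the 10 strongest knockout-only places with a named gene, the peak in Mill2 alone overlapped H3K27ac. A pair of them lay near the transfer RNA genes n-TEctc7 and n-TGgcc14 on chromosome 1, at 171078038 and 171082391, inside H3K27me3 peaks. Sfi1, a centrosome protein gene, held a stack of 38 fragments with a fold of only 3.01.

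Of the wild-type-only peaks, the strongest stood at X, 156174646 to 156174913, with 65 fragments and 36.3-fold, 112709 bp from the nearest gene. The next was in Rela, which encodes the p65 subunit of NF-kB, a protein that SIRT1 deacetylates. At chromosome 19, 5646809 to 5647382, it held 44 fragments and 17.1-fold inside an H3K27ac peak. Rela had 2 further wild-type peaks, of 6.06-fold and 3.85-fold. The knockout list had 1 peak at Rela, of 5 fragments and 2.24-fold, just outside the gene at 5636941 to 5637139. The p53 knockout list had 1 peak at Rela, of 2.21-fold, and the p53 wild-type list 2, of 2.90-fold each, none of them overlapping the 17.1-fold place. The high stack was thus in 1 of 4 SIRT1 libraries, missing from both p53 libraries as well as from the Ezh2 knockout. Other wild-type-only stacks lay 30706 bp from Npy2r (26 fragments, 14.9-fold), 58572 bp from Triqk (29 fragments, 6.43-fold) and 882 bp from Wls, the carrier of secreted Wnt proteins (46 fragments, 4.72-fold).

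Of the 8 genes followed in every list, Neat1, the long non-coding RNA of paraspeckles, had 2 knockout and 3 wild-type peaks on its body with 1 kb on both sides, of 5 to 6 and of 4 to 6 fragments, none of them overlapping. Nlrp3, the sensor of the NLRP3 inflammasome, had a knockout peak of 7 fragments (3.54-fold) at chromosome 11, 59555569 to 59555780, inside H3K27ac, and a second of 4 fragments. The wild type had 4 peaks there of 3 to 4 fragments, in other places. Gsdmd, the pore protein of pyroptosis, had 1 knockout peak of 5 fragments and no wild-type peak. Il1b and Casp1 had no knockout peak and 1 wild-type peak each, of 3 and of 5 fragments. Cdkn1a had no knockout peak in the same window and 3 wild-type peaks, of 5.31-fold, 4.40-fold and 3.30-fold.

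The first of these belonged to a kept place just past the Cdkn1a gene. The wild-type peak spanned 29101704 to 29102624 on chromosome 17 and held 9 fragments, and it met a knockout peak of 9 fragments and 3.23-fold (29101760 to 29102488), a p53 knockout peak of 8 fragments (3.29-fold) and a p53 wild-type peak of 8 fragments (5.15-fold). In the 10 kb past the gene, a window chosen after its values were seen, the Ezh2 knockout list had 4 peaks and the Ezh2 wild-type list 3, against 0.0687 and 0.283 for the length. The p53 knockout list had 5 peaks there and the p53 wild-type list 6. H3K27me3 had 3 peaks in the window, up to 7.95-fold, and H3K27ac none. EZH2 had 1 peak in untreated cells and 2 in the nigericin library, and p53 had 2. The length would give 0.0364, 0.0192 and 0.0185. A second place in the window had peaks of 10 fragments in the knockout (29107429 to 29107710, 3.50-fold) and 10 in the wild type (29107283 to 29108434, 3.19-fold). The p53 peaks (29101832 to 29102299, 2.26-fold, and 29107352 to 29107915, 4.08-fold) overlapped both of these SIRT1 places. Why lists of several antibodies had peaks at the same places was not tested. At Cdkn1a, SIRT1 peaks past the gene were thus in both genotypes, while the promoter printed above had a peak in the wild type and none in the other 3 lists.

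Sirt1 itself had no knockout peak and 1 wild-type peak of 4 fragments. Ezh2 had no knockout peak and 4 wild-type peaks of 3 to 5 fragments. At the mean density of the knockout list, a stretch as long as Ezh2 with 1 kb on both sides (65.0 kb gene) would hold 0.460 peaks, against 1.89 for the wild type, so the absence cannot check the deletion. Both p53 lists also had no peak in Ezh2.

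**Figure D2:**
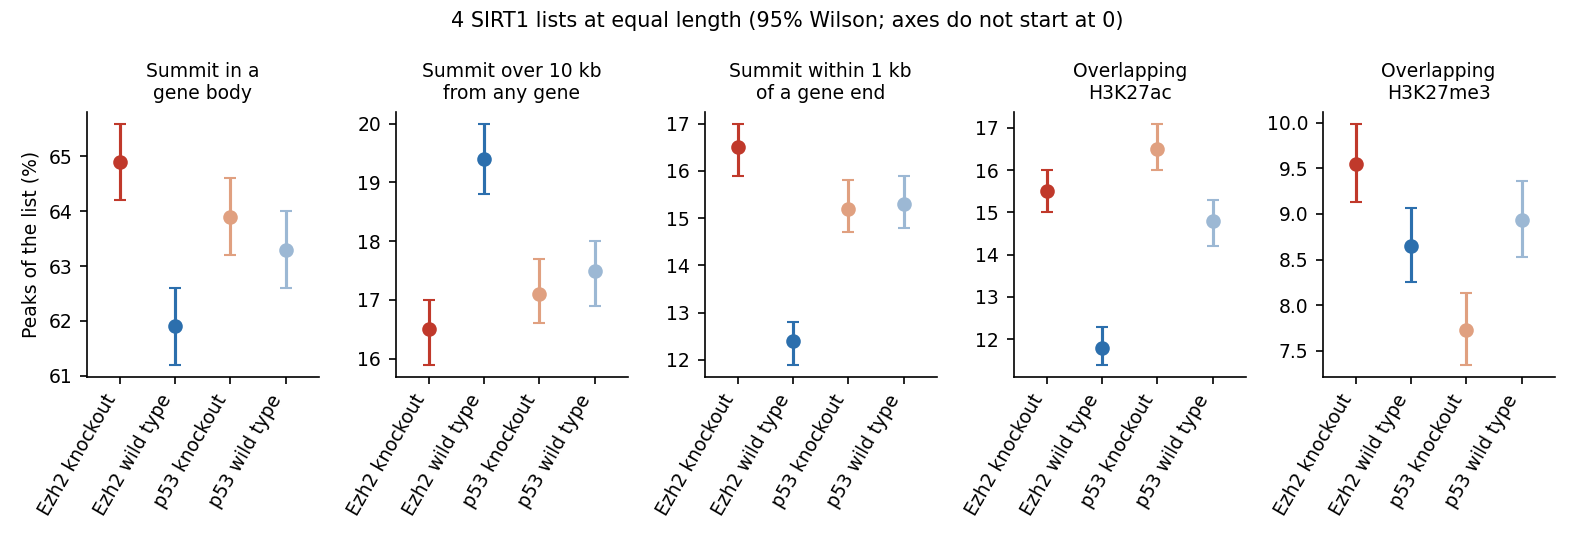
Percent of the 18087 strongest peaks of each SIRT1 list with the summit in a gene body, over 10 kb from any gene or within 1 kb of a gene end, and overlapping H3K27ac or H3K27me3, with 95% Wilson intervals. The Ezh2 wild-type list is the lowest in gene bodies (61.9%), at gene ends (12.4%) and in H3K27ac (11.8%) and the highest in distal summits (19.4%), with the p53 wild type between it and the Ezh2 knockout in gene bodies, and in H3K27me3 it lies between the p53 lists.

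Knockout peaks lay more often in and near genes than wild-type peaks. The summit was in a gene body for 64.9% of knockout-only peaks (64.2 to 65.6), 65.1% of kept knockout peaks (62.7 to 67.6) and 60.4% of wild-type-only peaks (60 to 60.7), while gene bodies make up 47.2% of the chromosomes. Distal summits, over 10 kb from any gene, made up 16.5% of knockout-only peaks (16.0 to 17.1), 15.4% of kept knockout peaks (13.7 to 17.4) and 21.6% of wild-type-only peaks (21.3 to 21.9), against 36.5% of the chromosomes. Over 50 kb from any gene lay 4.31% of knockout-only and 7.03% of wild-type-only peaks, against 16.9% of the chromosomes. Within 1 kb of a gene end lay 16.1% of knockout-only peaks, 21.2% of kept knockout peaks and 10.8% of wild-type-only peaks.

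The gap was smaller between lists of like strength. At equal length the gene-body share was 65.1% (64.4 to 65.8) for knockout-only and 62.0% (61.2 to 62.7) for wild-type-only peaks, and the distal share 16.4% and 19.4%. With at least 6 fragments in both lists it was 64.5% against 62.5%, and 16.0% against 18.1%. The p53 lists at the same length had 63.9% (knockout) and 63.3% (wild type) of summits in gene bodies, between the Ezh2 knockout (64.9%) and the Ezh2 wild type (61.9%). For gene ends the 4 lists gave 16.5% in the Ezh2 knockout, 12.4% in the Ezh2 wild type, 15.2% in the p53 knockout and 15.3% in the p53 wild type. At this length the Ezh2 wild type was the lowest of the 4 lists in both shares. In the first 1000 peaks of each list the order was another one. The gene-body share was 61.9% in the Ezh2 knockout and 60.7% in the Ezh2 wild type, below 65.5% in the p53 knockout and 64.1% in the p53 wild type. Distal summits made up 16.5% in the Ezh2 knockout and 19.1% in the Ezh2 wild type, above 12.9% in the p53 knockout and 14.4% in the p53 wild type.

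The makeup of the kept peaks differed with strength. At a q of at most 0.05 only 27.3% (16.3 to 41.8) of the 44 kept knockout peaks had their summit in a gene body and 29.5% were distal, against 61.8% and 15.6% of the 463 knockout-only peaks. H3K27ac met 6.82% of these kept peaks (2.35 to 18.2) and 25.5% of the knockout-only ones (21.7 to 29.6). Of the 44, 5 lay in the Rn4.5s stretch of chromosome 6 and 7 at the start of chromosome 9. Without both places the 32 others had 34.4% (20.4 to 51.7) in gene bodies, 25% distal and 6.25% in H3K27ac.

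Knockout peaks overlapped the active mark more often. H3K27ac peaks of wild-type macrophages met 15.3% of knockout-only peaks (14.8 to 15.9), 17.4% of kept knockout peaks (15.5 to 19.4) and 9.86% of wild-type-only peaks (9.65 to 10.1). They cover 2.77% of the chromosomes. At equal length the shares were 15.5% and 11.7% for knockout-only and wild-type-only peaks. Over whole lists of equal length H3K27ac met 15.5% in the Ezh2 knockout, 11.8% in the Ezh2 wild type, 16.5% in the p53 knockout and 14.8% in the p53 wild type. At a q of at most 0.05 it met 23.9% in the Ezh2 knockout and 12.6% in the Ezh2 wild type. The p53 knockout stood at 20.6% (16.5 to 25.3) and the p53 wild type at 14.4% (10.1 to 20.3). Both knockouts lay above both wild types at this q, but the intervals of the p53 pair overlapped. With at least 6 fragments this order did not hold. There the Ezh2 knockout (16.9%, 16.1 to 17.8) lay below the p53 wild type (18.3%, 17.1 to 19.5). The p53 knockout was the highest and the Ezh2 wild type the lowest in that setting. H3K27me3, the product of EZH2, met 9.57% of knockout-only (9.14 to 10), 9.34% of kept knockout (7.94 to 10.9) and 8.49% of wild-type-only peaks (8.29 to 8.70). At equal length that difference was 9.53% against 8.59%. The H3K27me3 peaks cover 4.73% of the chromosomes. Of them 26.7% lie on X, against 0.719% of knockout and 0.691% of wild-type SIRT1 peaks. They come from wild-type macrophages, so the mark in Ezh2 knockout cells is not known here. EZH2 peaks of untreated cells met 1.14% of knockout-only, 2.28% of kept knockout and 0.680% of wild-type-only peaks. In each class most peaks lay in neither histone mark: 75.3% of knockout-only, 73.3% of kept knockout and 81.8% of wild-type-only peaks.

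**Figure D3:**
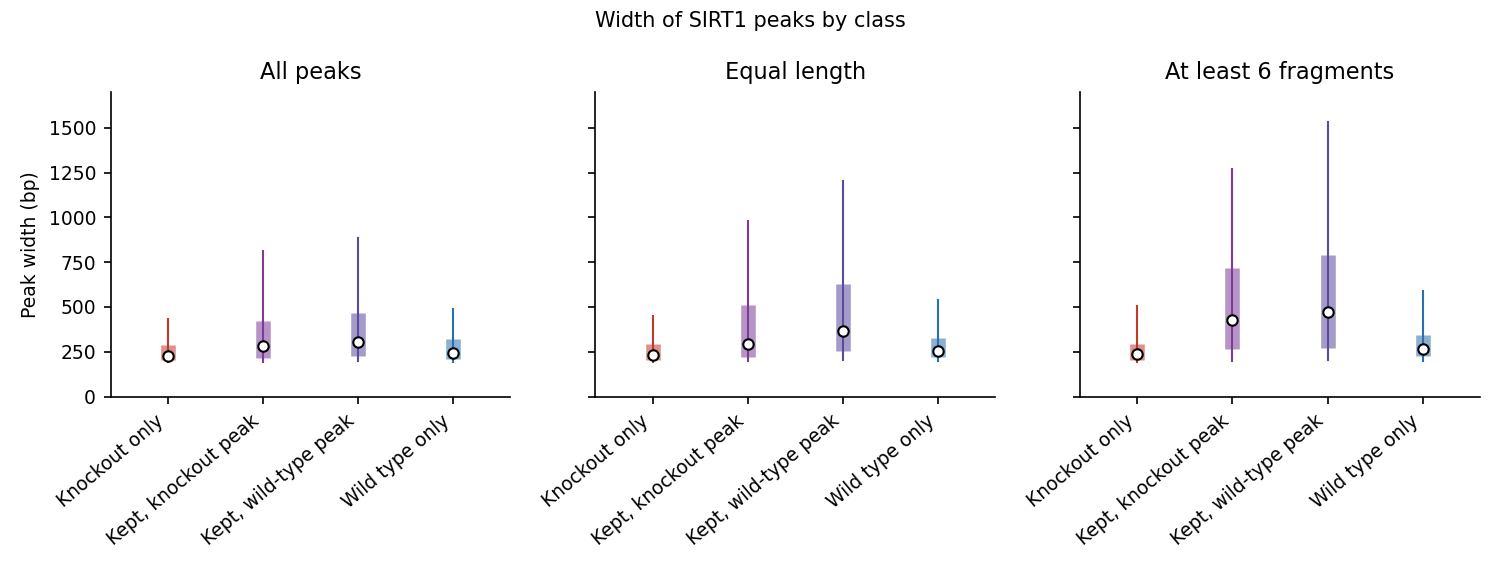
Width in bp of knockout-only, kept and wild-type-only SIRT1 peaks over all peaks, at equal length and with at least 6 fragments (circle, median; bar, middle 50% of peaks; line, middle 90%). Kept peaks are the widest in each panel, with medians of 427 bp in the knockout and 473 bp in the wild type at 6 or more fragments.

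Knockout-only peaks were the narrowest. Their median width was 229 bp, against 281 bp for kept knockout peaks, 306 bp for kept wild-type peaks and 244 bp for wild-type-only peaks. The narrowest peak of the knockout list was 189 bp wide and that of the wild type 192 bp, so most peaks were close to the least width. Over 500 bp were 2.55% of knockout-only, 17.3% of kept knockout, 21.4% of kept wild-type and 4.34% of wild-type-only peaks. At the same number of fragments knockout peaks were narrower as well: at 5 fragments the median was 228 bp in the knockout and 250 bp in the wild type, and at 7 fragments 241 bp and 286 bp. With at least 6 fragments, knockout-only peaks had a median of 235 bp and wild-type-only peaks of 268 bp.

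Long genes held fewer peaks for their length in both lists, and the gap was wider in the knockout. Protein-coding genes under 10 kb (7740 genes) held 2.95 knockout and 7.03 wild-type peaks per 100 kb, and those of 200 kb or more (989 genes) 0.457 and 2.38. The ratio of knockout to wild-type peaks was 0.419 in the shortest genes and 0.192 in the longest, and with at least 6 fragments 1.56 and 0.975. At equal length, the shortest genes held 2.95 peaks per 100 kb in the Ezh2 knockout list, 1.92 in the Ezh2 wild type, 2.44 in the p53 knockout and 2.37 in the p53 wild type. Camta1, a transcription activator gene of 802 kb, held the most knockout peaks of any protein-coding gene with a formal symbol, 15 against 34 wild-type peaks. Sytl3, a Rab effector gene of 79.9 kb, held 12 knockout and 6 wild-type peaks, the reverse of the list lengths, and Rptor, the scaffold of mTOR complex 1, held 13 and 20. These 3 were chosen after their values were seen.

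By chromosome the ratio of knockout to wild-type peaks ran from 0.206 on chromosome 6 to 0.278 on chromosome 11. Both lists were sparse on X, with 0.761 knockout and 3.01 wild-type peaks per Mb, against 7.30 and 30 on the autosomes.

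**Figure D4:**
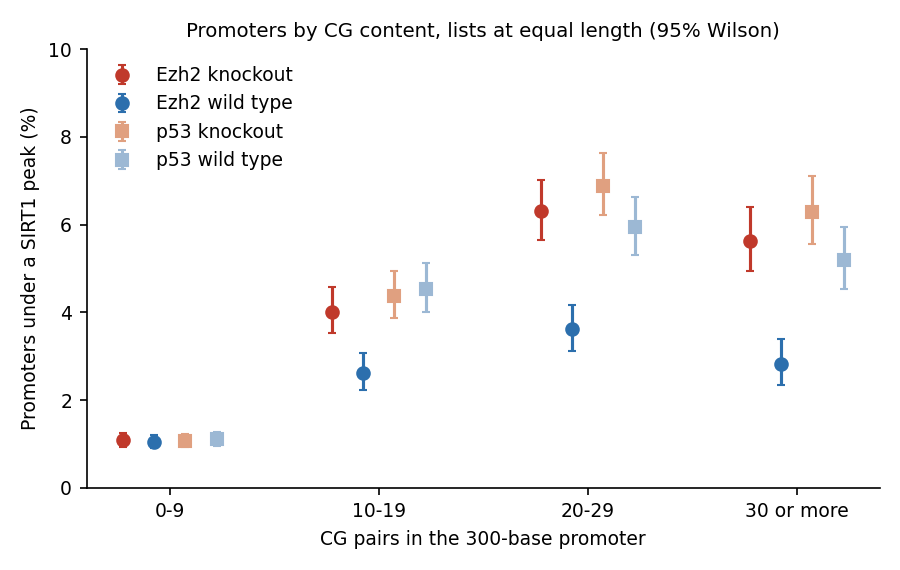
Percent of RefSeq promoters overlapped by a peak of each SIRT1 list at 18087 peaks, by number of CG pairs in the promoter, with 95% Wilson intervals. The lists lie together at 0 to 9 CG pairs, and from 10 pairs on the Ezh2 wild type lies below the other 3, at 2.62%, 3.62% and 2.82%.

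At promoters the gap between the lists lay at the CG-rich ones. Of 32619 RefSeq promoters, 945 (2.90%, 2.72 to 3.08) were overlapped by a knockout peak and 621 (1.90%, 1.76 to 2.06) by a wild-type peak at equal length. Over the whole wild-type list the number was 1879 (5.76%). Promoters with 0 to 9 CG pairs were under a peak in 1.08% in the knockout and 1.04% in the wild type at equal length. Promoters with 20 to 29 CG pairs were under a peak in 6.31% (5.66 to 7.03) in the knockout and 3.62% (3.13 to 4.18) in the wild type, and those with 30 or more in 5.63% (4.94 to 6.41) and 2.82% (2.34 to 3.39). The p53 knockout list reached 6.28% and the p53 wild-type list 5.19% at 30 or more pairs, close to the Ezh2 knockout. Promoters under knockout peaks held a median of 21 CG pairs, those under wild-type peaks at equal length 18 and all promoters 7. Of all promoters under a knockout peak 16.9% lay in H3K27ac, against 20.8% of those under a wild-type peak at equal length and 11.1% of all promoters.

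Of the motifs searched in these promoters, the GC box GGGCGG was in 59.4% of promoters under a knockout peak, 52.8% under a wild-type peak at equal length and 35.9% of all promoters. Split by CG content, its share was higher under knockout than under wild-type peaks at 0 to 9 pairs (14.1% and 12%), 10 to 19 pairs (58.0% and 54.1%) and 30 or more (86.6% and 81.5%), and lower at 20 to 29 pairs (70.4% and 78.4%). All promoters of these classes stood at 9.53%, 52.4%, 87.6% and 75.7%. The other motifs were not split in this way. The ETS site CCGGAA was in 28.4%, 24.5% and 15% of the same 3 sets over all CG contents, and the E-box CACGTG in 10.1%, 9.82% and 7.20%. The NF-Y box CCAAT was in 41.2%, 38.6% and 37.6%, and the cyclic AMP response element TGACGTCA in 3.28%, 4.35% and 1.80%. The PU.1 core GAGGAA, a site of the macrophage regulator PU.1, was in 26.8% and 25.6% of promoters under knockout and wild-type peaks, against 28.2% of all. The AP-1 site TGANTCA was in 5.71%, 4.35% and 7.85%, and the C/EBP site TTGCNNAA in 7.41%, 7.25% and 10.9%. At equal length, promoters under p53 knockout and p53 wild-type peaks had the GC box in 59.8% and 59.7%, close to the Ezh2 knockout. They had the ETS site in 28.1% and 26.7%. Both strands were searched in all 300 bases, and none of the 8 motifs contains another. A match is a description of the sequence and shows no binding.

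**Figure D5:**
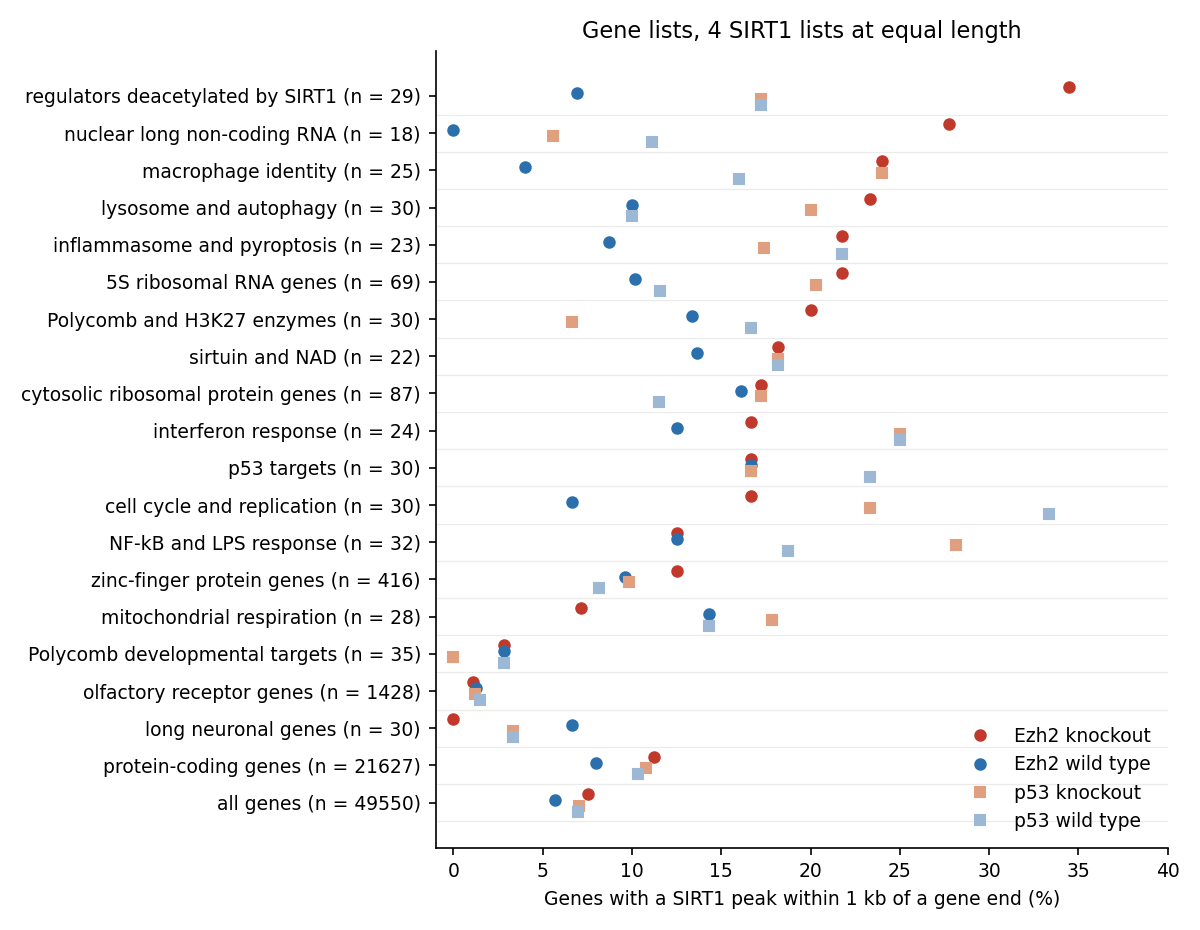
Percent of the genes of each list with a SIRT1 peak within 1 kb of a gene end, for the 4 SIRT1 lists at 18087 peaks (n, genes in the list). The Ezh2 knockout lies right of the Ezh2 wild type for most lists, and for regulators deacetylated by SIRT1 it reaches 34.5% against 6.90%, with 17.2% in each p53 list.

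Of 49550 RefSeq genes, 3735 (7.54%) had a knockout peak within 1 kb of a gene end and 2820 (5.69%) a wild-type peak at equal length, of which 425 (0.858%) had both, so that 3310 (6.68%) had a knockout peak only and 2395 (4.83%) a wild-type peak only. Over the whole wild-type list 9313 genes (18.8%) had a peak. Protein-coding genes stood at 11.2% in the knockout and 7.98% in the wild type at equal length. The gene lists are small, a difference of a few genes has no test here, and the wild-type and p53 counts of genes below are at equal length. Tied peaks at that cut were taken in chromosome order, which can leave out a gene on a late chromosome. On the whole gene with 1 kb on both sides, 9487 genes (19.1%) had a knockout peak and 8805 (17.8%) a wild-type peak at equal length. There, inflammasome and pyroptosis genes had 9 in each genotype, interferon response genes 8 and Polycomb and H3K27 enzymes 12, so the differences given below for their gene ends were not seen over whole genes. Peaks named for a gene are the strongest within 1 kb of its ends, in the whole list.

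Of these gene lists, regulators that SIRT1 is known to deacetylate had the highest knockout share at gene ends. Of 29 genes, 10 (34.5%) had a knockout peak and 2 (6.90%) a wild-type peak, with 5 in each p53 list. On the whole gene the gap was smaller, with 21 (72.4%) in the knockout and 17 (58.6%) in the wild type, against 21 in the p53 knockout and 18 in the p53 wild type, and the long neuronal genes stood higher, at 80% and 83.3%. Over the whole wild-type list the count was 9. Nfe2l2, the regulator of the antioxidant response (NRF2), had the strongest knockout peak, of 9 fragments and 5.39-fold (chromosome 2, 75704478 to 75704942), and no wild-type peak. Nr1h3, which encodes the oxysterol receptor LXR alpha, had a knockout peak of 7 fragments (4.32-fold) and a wild-type peak of 4 fragments (2.75-fold) in another place. Atg5, an autophagy conjugation factor, also had a knockout peak of 7 fragments (4.32-fold) and a wild-type one of 4 fragments (2.75-fold), at another end of the gene. Epas1, the hypoxia factor HIF-2 alpha, had a knockout peak of 6 fragments (3.78-fold) and no wild-type peak. Foxo3, a FOXO factor of stress resistance, had a knockout peak of 7 fragments (3.54-fold, 42277565 to 42277962) that met a wild-type peak, and it was the 1 gene of the 10 of which this was true.

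Sirtuin and NAD genes had 4 of 22 (18.2%) with a knockout peak and 3 (13.6%) with a wild-type peak, none with both. Over the whole wild-type list the count was 10. On the whole gene the order turned, with 8 in the knockout and 10 in the wild type, against 13 in the p53 knockout and 10 in the p53 wild type. The knockout ones at gene ends were Nadsyn1 and Qprt of NAD synthesis, Nmnat1, the nuclear NAD-forming enzyme, and Sirt3, the mitochondrial sirtuin, with folds of 4.85, 3.54, 2.62 and 2.66. The peak at Nmnat1, of 6 fragments, met a wild-type peak of 4 fragments and 2.75-fold. The peak at Nadsyn1 (chromosome 7, 143822836 to 143823308) lies on the promoter of Dhcr7, its neighbour, as well. Polycomb and H3K27 enzymes had 6 of 30 (20%) and 4 (13.3%), and Phf1, a Polycomb partner, Pcgf3, Cbx8 and Ring1 of the ubiquitin-ligase complex led the knockout peaks with 3.54-fold to 3.78-fold. Cbx8 and Cbx2 have H3K27me3 at their ends, of 10.7-fold and 7.24-fold. Developmental genes that Polycomb silences had 1 of 35 (2.86%) in each genotype, against 7.54% and 5.69% of all genes. Six2 was the knockout one, with 5 fragments in H3K27me3. A count of 1 gene is too small to show a lower share. With the whole wild-type list 7 of the 35 (20%) had a peak, against 18.8% of all genes. On the whole gene the shares were 14.3% in the knockout and 17.1% in the wild type, against 19.1% and 17.8% of all genes.

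Inflammasome and pyroptosis genes had 5 of 23 (21.7%) with a knockout peak and 2 (8.70%) with a wild-type peak, against 4 in the p53 knockout and 5 in the p53 wild type. Naip5 and Nlrc4, which form the flagellin-sensing inflammasome, each had a knockout peak of 6 fragments (3.78-fold), and Gsdme and Gsdmd, pore-forming gasdermins, of 5 fragments. NF-kB and LPS response genes had 4 of 32 (12.5%) in each genotype, against 9 in the p53 knockout and 6 in the p53 wild type. Nfkbie, an inhibitor of NF-kB, had 2 knockout peaks, of which the stronger (4.32-fold) met no wild-type peak and the other met one. The wild-type list had 1 peak at the ends of Nfkbie, of 4.95-fold. Tlr4 and Myd88, the LPS receptor and its adaptor, had a knockout peak of 3.59-fold and of 3.24-fold and no wild-type peak. Interferon response genes had 4 of 24 (16.7%) and 3 (12.5%), and among the knockout ones Irf1, an interferon regulatory factor, had a peak of 3.74-fold and Ifit2 and Oas1a, antiviral effectors, of 3.24-fold each.

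Macrophage identity genes had 6 of 25 (24%) with a knockout peak and 1 (4%) with a wild-type peak, against 6 in the p53 knockout and 4 in the p53 wild type. Over the whole wild-type list the count was 8. Lyz2, lysozyme, had a knockout peak of 7 fragments (4.32-fold), and Csf1r, the M-CSF receptor, and Fcgr1, a Fc receptor, of 5 fragments (3.24-fold each). Runx1, a regulator of blood cell development, had a knockout peak of 6 fragments (3.10-fold). Of the 6 genes, only Fcgr1 had a wild-type peak in the whole list, of 3 fragments, overlapping the knockout peak.

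Lysosome and autophagy genes had 7 of 30 (23.3%) and 3 (10%), with 2 in both. Gabarapl1, an autophagosome protein, had overlapping peaks of 7 fragments in the knockout (4.32-fold) and 6 in the wild type (3.85-fold), and Ctsl, the protease cathepsin L, of 6 (3.78-fold) and 7 (3.43-fold). Atg5 and Ctsd, cathepsin D, followed. Targets of p53 had 5 of 30 (16.7%) in each genotype. Ei24 led the knockout ones with 8 fragments (4.85-fold), and Btg2, an antiproliferative gene, had overlapping peaks of 3.78-fold in the knockout and 3.30-fold in the wild type. Plk3 and Aen, a kinase and a nuclease, had knockout peaks of 2.99-fold and 3.10-fold.

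Cell cycle and replication genes had 5 of 30 (16.7%) in the knockout and 2 (6.67%) in the wild type, against 7 in the p53 knockout and 10 in the p53 wild type. Cdk2, the S-phase kinase, led with 7 fragments (4.32-fold) and a wild-type peak of 2.75-fold that overlapped it, followed by Bub1, Top2a and E2f1. Mitochondrial respiration had 2 of 28 (7.14%) in the knockout and 4 (14.3%) in the wild type, while on the whole gene it had 10 (35.7%) and 7 (25%). Ndufa4 and Ndufs1, of the respiratory chain, were the knockout ones. Nuclear long non-coding RNA genes had 5 of 18 (27.8%) and 0, against 1 in the p53 knockout and 2 in the p53 wild type. Over the whole wild-type list the count was 2. On the whole gene it was 7 in the knockout and 4 in the wild type, against 4 in the p53 knockout and 6 in the p53 wild type. At gene ends Snhg5 led the knockout ones with 7 fragments (4.32-fold), before Neat1, Kcnq1ot1, the antisense RNA of an imprinted domain, and Miat. Long neuronal genes had 0 of 30 and 2 (6.67%), in Ctnna3 and Wwox.

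Among gene families, cytosolic ribosomal protein genes had 15 of 87 (17.2%) with a knockout peak and 14 (16.1%) with a wild-type peak, and 1 had both. Rpl10a, Rpl5 and Rps19 each had a knockout peak of 6 fragments (3.78-fold). Zinc-finger protein genes had 52 of 416 (12.5%) and 40 (9.62%), and 11 (2.64%) had both. Of the 5S ribosomal RNA genes, a tandem array on chromosome 8, 15 of 69 (21.7%) and 7 (10.1%) had a peak, with 14 in the p53 knockout and 8 in the p53 wild type. The copies are near-identical, so the peak of a single copy is uncertain. Transfer RNA genes had 27 of 409 (6.60%) and 22 (5.38%), and histone genes 8 of 74 (10.8%) and 3 (4.05%). Olfactory receptor genes, which act in sensory neurons, had 16 of 1428 (1.12%) and 18 (1.26%), and vomeronasal receptor genes 2 of 359 (0.557%) and 4 (1.11%).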

How the data were processed

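SIRT1 was measured by ChIP-seq in 1 library of each genotype. The authors deposited 1 peak list per library, none pooled, on GRCm38/mm10, made with MACS2 and deepTools per the submitters' processing notes. For versions, aligner and read totals: not given in the sources used here. Per peak, the deposited lists hold a fold over background, −log10 p, −log10 q and a score. Every peak of the SIRT1 lists has a −log10 p of at least 2, and most have a q above 0.05. List length can move with depth and background, and their part in these lists was not tested.

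Peaks on chromosomes 1 to 19 and X were used. Fragments at a summit were solved from each fold and p-value by the caller's Poisson upper tail (tolerance 0.001 on the −log10 p), with 1 peak of each list unsolved. Genes were the 49550 of a RefSeq table of GRCm38.p6 without strand or exons, so a gene end is either end. Promoter sequences are RefSeq's (32619 promoters of 26794 genes). Shares carry 95% Wilson intervals. Equal length means the 18087 peaks of highest −log10 p, ties by fold and then position. In the wild-type list this cut falls among peaks of 5 fragments, since 6291 peaks had at least 6 and 22897 at least 5. Tied peaks were taken in chromosome order, so those left out lie on the last chromosomes. The p53 lists were cut in the same way. The reverse order was run for the kept shares only, so its effect on other values at equal length was not tested. Python 3.11.15, pandas 2.3.3, numpy 2.4.6 and scipy 1.17.1 were used, and the overlap and fragment steps were tested on simulated data.

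Named genes were 8 fixed genes, the 10 peaks of highest −log10 p in each class by gene or nearest gene, and up to 4 members per gene list, passing over genes without a formal symbol, and some genes this selects are not reported here. Members and lists were chosen with earlier results of these data known. Of 412 listed symbols 4 are not in the table. Alternatives were equal length, a q of at most 0.05, at least 6 fragments, shorter lists, an overlap of 50%, protein-coding genes, any overlap with a gene, a distal distance of 50 kb, a whole-gene window and the exclusion of regions in all 9 lists.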

Additional observations from a re-analysis of the deposited data

Results flagged for a closer look

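SIRT1 peaks outside chromosomes 1 to 19 and X entered no comparison. The knockout list held 137 of them, 83 on Y and 54 on unplaced sequences. The wild-type list held 512, of which 421 were on Y, 8 on the mitochondrial chromosome and 83 on unplaced sequences. They are given as peaks in data that nothing above used. Peak lists of the inputs were not analysed here, so these numbers are not set against a background. The p53 knockout list held 104 peaks on Y and the p53 wild-type list 194.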

How the results depend on the processing

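Values below are in the order knockout only, kept knockout and wild type only, unless said otherwise. None of the shares or medians has a test, so only their size can move.

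At equal length the kept share was 3.05% of knockout and 2.98% of wild-type peaks (3.01% and 2.94% with ties in reverse order), against 7.99% and 1.94% in the whole lists. It was 2.80% and 2.74% in the first 5000 peaks, 5.80% and 5.70% in the first 1000, 8.68% and 17.4% at a q of at most 0.05, 3.31% and 3.56% with at least 6 fragments, and 5.75% and 1.39% with an overlap of 50% of the shorter peak. Summits in a gene body made up 59.4% of kept and 62.0% of wild-type-only peaks at equal length. At a q of at most 0.05 they were 61.8%, 27.3% and 59.3%. With at least 6 fragments they were 53.4% of kept and 62.5% of wild-type-only peaks. With protein-coding genes they were 56.3%, 57.3% and 51.9%, and with any overlap in place of the summit 65.9% and 61.1% of knockout-only and wild-type-only peaks. Distal summits were 19.6% of kept and 19.4% of wild-type-only peaks at equal length, 15.6%, 29.5% and 23.0% at a q of at most 0.05, 21.6% of kept and 18.1% of wild-type-only peaks with at least 6 fragments, and 4.31%, 4.15% and 7.03% beyond 50 kb. Median widths were 294 bp for kept and 256 bp for wild-type-only peaks at equal length, 265, 530 and 326 bp at a q of at most 0.05, and 235, 427 and 268 bp with at least 6 fragments. Without the Rn4.5s stretch of chromosome 6 and the start of chromosome 9, the kept peaks at a q of at most 0.05 had 34.4% in gene bodies, 25% distal and 6.25% in H3K27ac. H3K27ac met 15.2% of kept and 11.7% of wild-type-only peaks at equal length, 25.5%, 6.82% and 13.7% at a q of at most 0.05, 17.2%, 10.8% and 14.2% with at least 6 fragments, and 13.6%, 15.4% and 8.65% with an overlap of 50%. Overlap with the other SIRT1 libraries was set beside the Ezh2 pair at 2.80% in the first 5000 peaks and 5.80% in the first 1000. Of the 402 listed genes, 61 had a knockout peak at an end and 158 on the gene with 1 kb on both sides. Over all genes the shares were 7.54% and 19.1%.

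The higher gene-body and H3K27ac shares and the lower distal share of knockout-only against wild-type-only peaks kept their direction in all of these settings, while the kept peaks changed sides: at a q of at most 0.05 and with at least 6 fragments they were the least often in gene bodies and in H3K27ac, and at equal length the least often in gene bodies. The cause was not tested. Regions in all 9 lists numbered 0, so leaving them out left each value identical. The setting of at least 6 fragments, the places left out on chromosomes 6 and 9, and the first 5000 and 1000 peaks for the other SIRT1 libraries, were chosen after seeing the data. No paired analysis was possible because each genotype has 1 library. Most peaks stand on 3 to 6 fragments and no read totals were used, so a place missing from a list is not shown to be free of SIRT1.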

Other observations

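MicroRNA genes, which the comparisons above do not use, had a SIRT1 peak within 1 kb of an end in 71 of 1193 (5.95%) in the knockout and 49 (4.11%) in the wild type at equal length, against 53 in the p53 knockout and 54 in the p53 wild type. Pseudogenes of the table had 237 of 9852 (2.41%) and 222 (2.25%), and long non-coding RNA genes 832 of 12697 (6.55%) and 703 (5.54%).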
